A study of Arabidopsis thaliana with 27 samples.

Results

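ATP-citrate lyase was followed through its subunit genes in Arabidopsis thaliana leaves exposed to ozone. The members were every probe set with 1 gene whose symbol in the platform annotation begins with ACLA- or ACLB-, which gave 4 of the 13350 genes with such a probe set: the A-subunit genes ACLA-1 (AT1G10670), ACLA-2 (AT1G60810) and ACLA-3 (AT1G09430) and the B-subunit gene ACLB-1 (AT3G06650). Each gene had 1 probe set, and ACLB-2, another of the 5 ATP-citrate lyase genes in the RefSeq table of assembly TAIR10.1, is not analysed here. The set was chosen by the values of ACLA-1 and ACLA-2 in wild type at 2 d, which stood lower in ozone than in clean air, so for all 4 genes that comparison, and any other that uses its arrays, is described without a test.

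The enzyme works in the cytosol, where it uses ATP and coenzyme A to split citrate into oxaloacetate and acetyl-CoA. In plants it is built from separate A and B subunits, and both are needed for activity. The cytosolic acetyl-CoA it makes is the starting point for sterols through the mevalonate route, and, by way of malonyl-CoA, for the long-chain fatty acids of cuticular wax and for flavonoids. The acetyl-CoA used for new fatty acids inside chloroplasts is made there by other enzymes.

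The study compared Columbia wild type (Col-0) with the double mutant gpa1-4/agb1-2, called the mutant below, which carries null alleles of the alpha and beta subunit genes of the heterotrimeric G protein. Plants 4 to 5 weeks old, grown with 9 h of light and 15 h of dark, were kept at 24 degrees C and exposed daily, for 7 h, to clean air holding 5 ppb ozone or to air holding 125 ppb. Mid-whorl leaves were sampled at 3 h and at 2 d. Each of the 4 groups at 3 h was measured on 3 arrays. At 2 d there were 3 arrays for the mutant in clean air and 4 for each of the other groups. The labels call the replicates biological and do not say how many plants went into 1 array or which of the 4 chambers they came from, so the p-values measure the spread between these arrays. Whole leaves were sampled, so fewer cells of a type and less RNA per cell cannot be told apart. No probe set named for GPA1 or AGB1, or for the leaf genes RBCS1A, LHCB1.1, LHCB1.2 and LHCA1, was among those with 1 gene, so neither the mutant genotype nor the leaf origin was checked on them. Of the root peroxidase genes PER27, PER57 and PER10, none exceeded the 48.4th percentile of any array.

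Values are log2(intensity + 1), with 1 unit for each doubling. Array medians lay between 7.27 and 7.52 on this scale, and replicate arrays correlated at 0.916 to 0.965 across probe sets. Changes are ozone minus clean air with the standard error (SE) of a limma fit over all 27 arrays, and a change passed at a Benjamini-Hochberg adjusted p under 0.05 over all probe sets. Levels are compared only between groups for 1 gene and never between genes, because probe sets differ in brightness for the same amount of RNA. ACLA-1, ACLA-3 and ACLB-1 were bright on every array, between the 81.1th and the 95.7th percentile of the array's probe sets. ACLA-2 was dimmer, between the 49.9th and the 81.9th percentile.

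ACLA-1 encodes an A subunit and was lower in ozone at 2 d in both genotypes. In wild type at 2 d its clean-air arrays read 11.55, 11.43, 11.46 and 11.41, and its ozone arrays 10.84, 10.79, 10.74 and 10.999. The mutant at 2 d had clean-air arrays at 11.62, 11.35 and 11.31, and ozone arrays at 10.40, 10.70, 11.05 and 10.95. Every ozone array at 2 d lay below every clean-air array of its genotype. The change was −0.62 ± 0.158 in wild type, a 1.54-fold lower signal, which is part of what led to the choice of the gene. In the mutant it was −0.65 ± 0.17, or 1.57-fold lower, with a 95% interval of −1.0 to −0.30, and it did not pass in limma (adjusted p = 0.112, unadjusted p = 0.000951). With array weights, which give noisier arrays less influence, it was −0.65 and passed at adjusted p = 0.0383, while the other settings, and the fits that left out 1 array, gave adjusted p of 0.0536 to 0.337. Array weights moved the count of all probe sets passing in this comparison from 43 to 424 of 22746. The difference of the 2 changes, mutant minus wild type, was −0.03 ± 0.232 and was not tested.

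**Figure D1:**
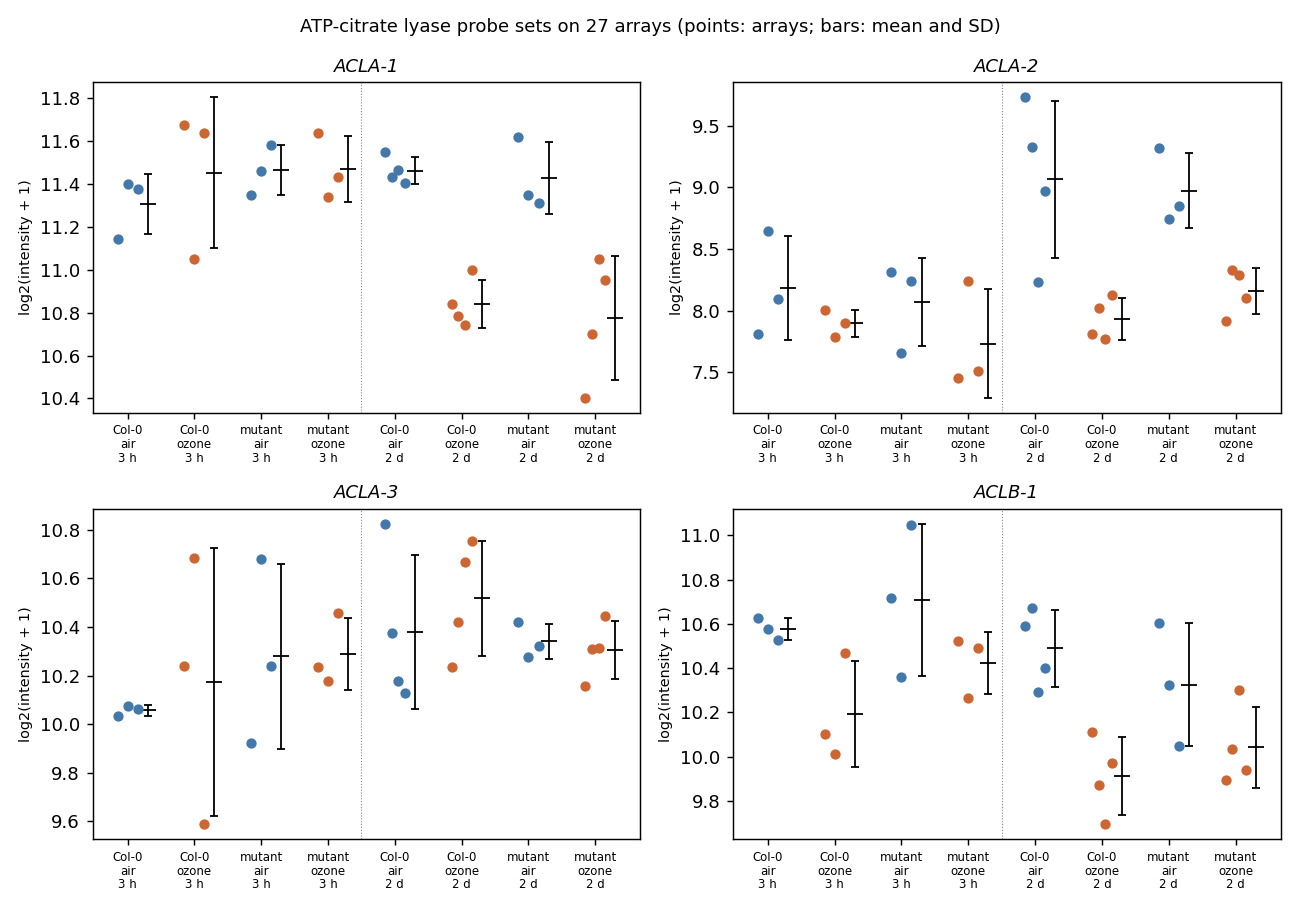
Each panel plots 1 ATP-citrate lyase gene as log2(intensity + 1) in 8 groups of genotype, air and time, with a point for each of the 27 arrays and a bar for the group mean and SD. The ACLA-1 ozone arrays at 2 d, at 10.40 to 11.05, lie below the clean-air arrays at 2 d, at 11.31 to 11.62, and the ACLA-3 groups overlap throughout at 2 d.

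At 3 h the ACLA-1 groups overlapped. Wild type read 11.15, 11.40 and 11.38 in clean air and 11.68, 11.05 and 11.64 in ozone, a change of 0.15 ± 0.182 (adjusted p = 0.776). The mutant read 11.35, 11.46 and 11.58 in clean air and 11.64, 11.34 and 11.44 in ozone, a change of 0.01 ± 0.182 (adjusted p = 0.995). Neither change passed in limma, and the second turned sign, to −0.01 and −0.03, with a second quantile normalization and with arrays centred on their median. In order of their means the groups ran from the mutant in ozone at 3 h, at 11.47 ± 0.154 (SD, n = 3), down to wild type in clean air at 3 h, at 11.31 ± 0.141 (SD, n = 3), with overlapping arrays between all neighbours. Below these 6 groups, and apart from the lowest of them, came wild type in ozone at 2 d, at 10.84 ± 0.111, and the mutant in ozone at 2 d, at 10.78 ± 0.29 (SD, n = 4 each), which overlapped each other. In the mutant the ozone change at 2 d was lower than that at 3 h by 0.66 ± 0.249 on the log2 scale, which did not pass in limma (adjusted p = 0.289). In wild type the same difference was −0.77 ± 0.241 and was not tested.

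ACLA-2 encodes another A subunit, and its ozone arrays at 2 d were also lower, against clean-air means that were higher than those at 3 h. In wild type at 2 d it read 9.73, 9.32, 8.23 and 8.97 in clean air and 7.81, 8.02, 7.77 and 8.13 in ozone. For the mutant at 2 d the arrays read 9.32, 8.75 and 8.85 in clean air and 7.92, 8.33, 8.29 and 8.11 in ozone. The groups did not overlap in either genotype, although the third clean-air array of wild type, at 8.23, lay close to the highest ozone array. The change was −1.13 ± 0.262 in wild type (2.19-fold lower, not tested) and ranged from −1.41 to −0.91 as single arrays were left out. In the mutant it was −0.81 ± 0.283, or 1.75-fold lower, with a 95% interval of −1.40 to −0.22, and it did not pass in limma (adjusted p = 0.22, unadjusted p = 0.00919), nor did it under any setting or with any array left out (adjusted p of 0.14 to 0.512). The difference of the 2 changes, mutant minus wild type, was 0.32 ± 0.386 and was not tested.

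At 3 h wild type read 7.82, 8.64 and 8.10 for ACLA-2 in clean air and 8.005, 7.78 and 7.90 in ozone, and the mutant 8.31, 7.66 and 8.24 in clean air and 7.46, 8.24 and 7.51 in ozone. The changes of −0.29 ± 0.303 and −0.34 ± 0.303 did not pass in limma (adjusted p = 0.716 and 0.787), and the groups overlapped. They ranged from −0.474 to −0.059 in wild type and from −0.589 to −0.196 in the mutant with single arrays left out. The highest means were those of both clean-air groups at 2 d, at 9.06 ± 0.634 (SD, n = 4) in wild type and 8.97 ± 0.304 (SD, n = 3) in the mutant. The arrays of the mutant group lay above those of the next group in the order, wild type in clean air at 3 h, while the wild-type group overlapped it through its array at 8.23. The other 6 means ran from 8.19 ± 0.422 in wild type in clean air at 3 h to 7.73 ± 0.439 in the mutant in ozone at 3 h (SD, n = 3 each), with overlap between all neighbours. Clean-air means were higher at 2 d than at 3 h by 0.88 in wild type, where the arrays overlapped, and by 0.90 in the mutant, where they did not. The ozone means differed between the times by 0.04 in wild type and 0.43 in the mutant, with overlap in both. For ACLA-1 the clean-air means at 2 d and 3 h differed by 0.16 in wild type, without overlap, and by −0.04 in the mutant, while the ozone means were lower at 2 d, with differences of −0.61 and −0.70 and no overlap. The ACLA-1 clean-air arrays of wild type were only narrowly apart, with the highest at 3 h at 11.401 and the lowest at 2 d at 11.407. ACLA-3 in wild type in clean air was also higher at 2 d without overlap, by 0.32. Its other groups, and all those of ACLB-1, overlapped between the times. These differences between times were not tested, and the share of all probe sets without overlap between times was not computed.

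ACLA-3, the remaining A-subunit gene, had overlapping ozone and clean-air arrays in both genotypes at both times. In wild type at 2 d it read 10.82, 10.38, 10.18 and 10.13 in clean air and 10.23, 10.42, 10.67 and 10.75 in ozone. In the mutant at 2 d it read 10.42, 10.28 and 10.32 in clean air and 10.16, 10.31, 10.31 and 10.45 in ozone. The changes were 0.14 ± 0.205 in wild type, not tested, and −0.03 ± 0.222 in the mutant, with a 95% interval of −0.49 to 0.43 (limma adjusted p = 0.976). At 3 h it read 10.03, 10.08 and 10.06 in wild type in clean air and 10.24, 10.69 and 9.59 in ozone, so that the ozone arrays spread to both sides of a narrow control group. In the mutant at 3 h it read 9.92, 10.68 and 10.24 in clean air and 10.23, 10.18 and 10.46 in ozone. The 3 h changes of 0.11 ± 0.237 and 0.01 ± 0.237 did not pass in limma (adjusted p = 0.88 and 0.994), and the second was −0.00 and −0.03 with a second quantile normalization and with centred arrays. The means of the 8 groups covered 0.462, from 10.06 ± 0.0227 to 10.52 ± 0.236, and the arrays of all neighbours in this order overlapped.

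The changes of the A-subunit genes at 2 d can be compared within each array as the log2 difference between probe sets, centred on its mean over the 27 arrays. For ACLA-1 minus ACLA-3 at 2 d, wild type had −0.62 ± 0.222 under ozone against 0.14 ± 0.262 without it (SD, n = 4 each). The mutant had −0.47 ± 0.208 (SD, n = 4) in ozone and 0.14 ± 0.105 (SD, n = 3) in clean air. The change of ACLA-1 minus that of ACLA-3 came to −0.76 in wild type and −0.62 in the mutant, without overlap of arrays in either. For ACLA-2 minus ACLA-3 the corresponding values were −1.27 in wild type and −0.78 in the mutant, again without overlap. At 3 h the arrays overlapped for both pairs in both genotypes. For ACLA-1 minus ACLA-2 they were 0.51 in wild type and 0.16 in the mutant at 2 d, with overlap. No test was made of these differences, and the share of other pairs of probe sets without overlap was not computed. In wild type at 2 d the separation from ACLA-3 follows in part from the choice of ACLA-1 and ACLA-2 by their values there.

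**Figure D2:**
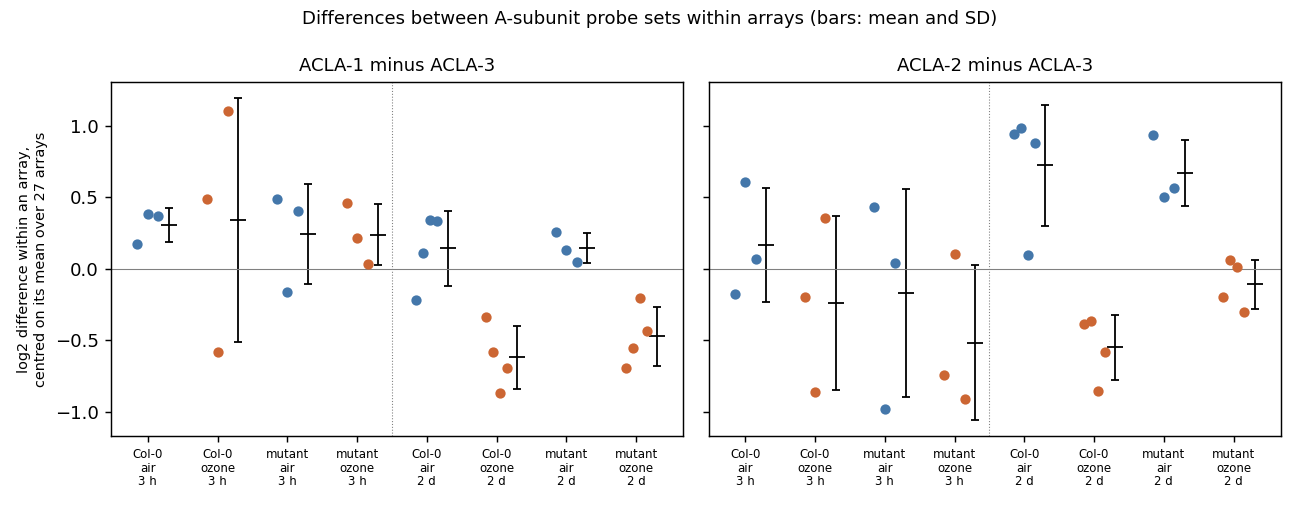
Log2 difference within an array between 2 A-subunit probe sets, centred on its mean over the 27 arrays, for ACLA-1 minus ACLA-3 and ACLA-2 minus ACLA-3, with a point for each array and a bar for the group mean and SD. At 2 d the ozone arrays lie below the clean-air arrays in both genotypes, and at 3 h the groups overlap. The wild-type arrays at 2 d were used in the choice of ACLA-1 and ACLA-2.

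ACLB-1 encodes a B subunit. In wild type at 2 d it read 10.59, 10.67, 10.29 and 10.40 in clean air and 10.11, 9.87, 9.70 and 9.97 in ozone, without overlap. In the mutant at 2 d it read 10.60, 10.32 and 10.05 in clean air and 9.90, 10.03, 10.30 and 9.94 in ozone, with overlap. The change was −0.58 ± 0.166 in wild type (1.49-fold lower, not tested) and −0.28 ± 0.179 in the mutant, with a 95% interval of −0.65 to 0.09 (limma adjusted p = 0.563). With single arrays left out the mutant value ranged from −0.422 to −0.143. The difference of the 2 changes, mutant minus wild type, was 0.29 ± 0.244 and was not tested.

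At 3 h ACLB-1 was the one member whose ozone and clean-air arrays did not overlap in wild type. Wild type read 10.63, 10.58 and 10.53 in clean air and 10.102, 10.01 and 10.47 in ozone, so that every ozone array lay below every clean-air array, as in 8.79% of all probe sets. The change was −0.38 ± 0.192 and did not pass in limma (adjusted p = 0.347), while with array weights it was −0.46 and passed at adjusted p = 0.0443. Array weights moved the count of all probe sets passing in this comparison from 342 to 3329 of 22746. The mutant read 10.72, 10.36 and 11.05 in clean air and 10.52, 10.26 and 10.49 in ozone, a change of −0.28 ± 0.192 with overlap (adjusted p = 0.69), which ranged from −0.459 to −0.115 as single arrays were left out. The means ran in small steps from 10.71 ± 0.344 in the mutant in clean air at 3 h (SD, n = 3) to 9.91 ± 0.175 in wild type in ozone at 2 d (SD, n = 4), and neighbours overlapped throughout. In the mutant the ozone changes at 2 d and 3 h differed by 0.00 ± 0.262 (limma adjusted p = 0.999).

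**Figure D3:**
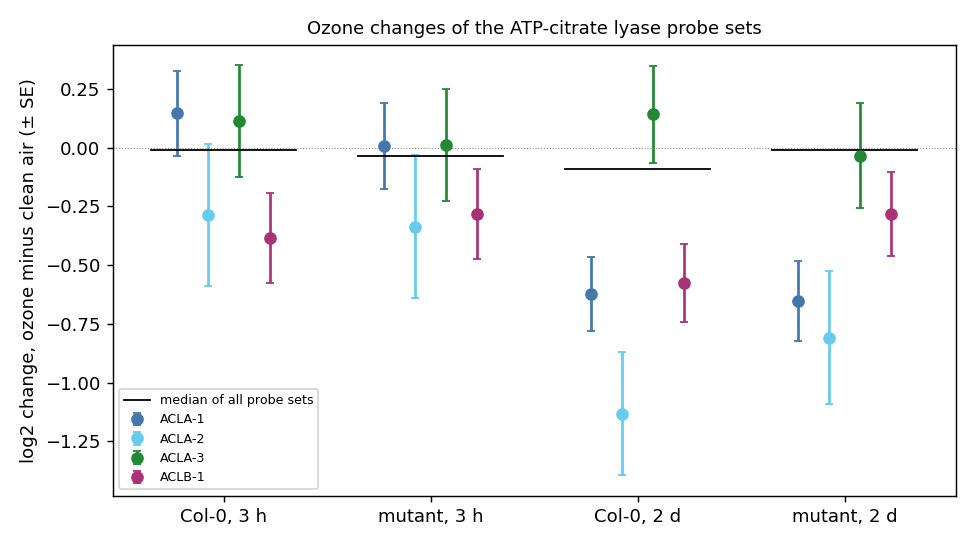
Log2 change in ozone against clean air with its SE for the 4 ATP-citrate lyase genes in each genotype and time, with a black line at the median change of all probe sets. The ACLA-1 changes are −0.62 and −0.65 at 2 d and 0.15 and 0.01 at 3 h, and the ACLA-3 changes lie between −0.03 and 0.14.

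Taken as a list, the 4 genes had a median change of −0.60 at 2 d in wild type and −0.47 in the mutant, where the medians of all probe sets were −0.09 and −0.01. At 3 h the medians were −0.09 in wild type and −0.14 in the mutant, against −0.01 and −0.04 over all probe sets. In wild type at 2 d, 3 of the 4 had every ozone array below every clean-air array, which held for 7.93% of all probe sets, and 1.82% of all probe sets passed lower. The count past the threshold in either direction there was 784, and 1299 with the replicate number as a block. Nothing is read from these 2 shares, or from the median of the 4 genes in wild type at 2 d, since the choice of genes used that comparison. In the mutant at 2 d, 2 of the 4 had no overlap, ACLA-1 and ACLA-2, where the share of all probe sets lower without overlap was 4.50%. None of the 4 passed there in limma, where 0.189% of all probe sets passed in either direction and 0.0352% passed lower. An unadjusted p under 0.05 was found for 2 of the 4, and for 12.3% of all probe sets. At 3 h none of the 4 passed in either genotype, where 1.50% of all probe sets passed in wild type and 0.651% in the mutant, and 0 of the 4 had an unadjusted p under 0.05 in either, against 15.4% of all probe sets in wild type and 10.2% in the mutant. The block moved the count of all probe sets in the mutant at 3 h from 148 to 407, and still none of the 4 passed. In the mutant at 3 h, 0 of the 4 had separate arrays, where 8.34% of all probe sets were lower and 8.83% higher without overlap.

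The genotypes were compared in the same air. At 3 h in clean air the mutant differed from wild type by 0.16 ± 0.182 for ACLA-1, −0.12 ± 0.303 for ACLA-2, 0.22 ± 0.237 for ACLA-3 and 0.13 ± 0.192 for ACLB-1, and none passed in limma (adjusted p = 1 for each), with 0.0132% of all probe sets past the threshold. At 3 h in ozone the differences ran from −0.16 ± 0.303 for ACLA-2 to 0.23 ± 0.192 for ACLB-1, and none passed (limma adjusted p of 0.981 to 0.998), with 0.0176% of all probe sets past the threshold. The ozone change at 3 h, mutant minus wild type, lay between −0.14 ± 0.257 for ACLA-1 and 0.10 ± 0.271 for ACLB-1. None of the 4 passed in limma, as 0% of all probe sets did, and 0 of the 4 had an unadjusted p under 0.05, against 2.76% of all probe sets. At 2 d the differences lay between −0.16 and −0.04 in clean air and between −0.21 and 0.23 in ozone, and were not tested. With 1 array left out, those in clean air of ACLA-1, ACLA-2 and ACLA-3 reached 0.021, 0.129 and 0.112, and that of ACLA-1 in ozone reached 0.059, so these turned sign. For ozone by time in the mutant, 0.0352% of all probe sets passed in limma and none of the 4 did. ACLA-1 was the one of the 4 with an unadjusted p under 0.05, which 11.7% of all probe sets had.

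The genes most like each member were taken as the 5 named probe sets, among 6752 with a mean of at least 7, with the highest Pearson r over the 27 arrays. The arrays share the 8 groups and any error of an array, so these values describe these arrays. The genes were picked on the same arrays, so ozone changes like those of their member follow from the choice. They are given as values and are no separate result. ACLA-1 was followed by AT1G52510 (r = 0.919), TAPX (r = 0.903), which encodes the thylakoid ascorbate peroxidase, AT3G10060 (0.901), AT4G10030 (0.881) and AT3G61080 (0.876). All 5 were lower in ozone at 2 d, by −1.51 to −1.15 in wild type and −1.26 to −0.86 in the mutant, and lay between −0.17 and 0.11 at 3 h. ACLB-1 was followed by AT1G78170 and AT3G08680 (0.894 each), GH9B7 (0.892), of a family of glycosyl hydrolases, iqd21 (0.888), which encodes an IQ-domain protein, and AT3G20820 (0.884), whose changes were below 0 in all 4 ozone comparisons, at −1.57 to −0.24. ACLA-2 had looser company, led by RR16 (0.796), a response regulator gene of cytokinin signalling, and AT5G52430 (0.793), AT3G18215 (0.788), AT1G78450 (0.787) and AT3G14740 (0.781). ACLA-3 was followed by AT3G05760 (0.787), DER2.1 (0.767), AT2G22660 (0.76), AT1G23960 (0.758) and AT3G02770 (0.73). The genes least like the members were AT5G15550 for ACLA-1 (−0.857), AT1G65490 for ACLA-2 (−0.884), AT1G75210 for ACLA-3 (−0.748) and AT5G18310 for ACLB-1 (−0.885).

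Among the members, the closest pair joined the 2 subunit types. ACLA-1 ranked 268th of 6752 by likeness to ACLB-1, with Pearson r = 0.721 and Spearman rho = 0.664 over the 27 arrays, and r = 0.52 for the deviations of arrays from their group means. ACLA-1 and ACLA-2 had r = 0.285, and ACLA-2 and ACLB-1 had r = 0.311. ACLA-3 had r of −0.208 with ACLA-1, 0.125 with ACLA-2 and −0.355 with ACLB-1. These correlations are descriptions over arrays of 8 groups and carry no p. Within arrays, ACLA-1 minus ACLB-1 changed in ozone by 0.53 in wild type at 3 h and −0.37 in the mutant at 2 d, without overlap. The changes of this pair were 0.29 in the mutant at 3 h and −0.045 in wild type at 2 d, with overlap. ACLA-2 minus ACLB-1 changed by −0.53 in the mutant at 2 d without overlap, and overlapped in the other comparisons. These differences were not tested.

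Genes around the enzyme were counted from a list of 76 genes in 4 roles, of which 11 had a named probe set. In wild type at 2 d, 0 rose and 1 fell, where 3.45% of all probe sets passed in either direction, and the median change was −0.19 against −0.09 over all probe sets. The one that fell was FATB, a thioesterase that releases saturated fatty acids from acyl carrier protein in plastids, by 0.71 ± 0.197 on the log2 scale (limma adjusted p = 0.0488). Its clean-air arrays read 11.47, 11.18, 11.13 and 10.64 and its ozone arrays 10.95, 10.29, 10.20 and 10.16, so the groups overlapped. The call of FATB was lost without clean-air replicate 1, 2 or 3 (adjusted p = 0.153, 0.113 and 0.0865) or ozone replicate 2, 3 or 4 (0.127, 0.126 and 0.11), with a second quantile normalization (0.0506) and with separate fits per time (0.105). FATB had a change of −0.60 ± 0.213 in the mutant at 2 d, without overlap, and did not pass in limma (adjusted p = 0.225). None of the 11 passed in the mutant at 2 d, or at 3 h in either genotype. Of the 11, 1 had an unadjusted p under 0.05 in the mutant at 2 d, where 12.3% of all probe sets had. At 3 h there were 2 in wild type and 0 in the mutant, where the shares of all probe sets were 15.4% and 10.2%.

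By role, the 4 measured genes of plastid acetyl-CoA and fatty acid synthesis at 2 d had changes in wild type of 0.70 ± 0.227 for ACS, the plastid acetyl-CoA synthetase gene (adjusted p = 0.0818), −0.27 ± 0.171 for KAR, a ketoacyl reductase gene, and −0.19 ± 0.305 for FATA, beside FATB. Of the 4 genes of citrate and malate metabolism, DTC, a mitochondrial carrier of di- and tricarboxylates, had −0.35 ± 0.151 in wild type and −0.30 ± 0.163 in the mutant (adjusted p = 0.19 and 0.471). The isocitrate dehydrogenase genes had 0.32 ± 0.252 for IDH5 and −0.15 ± 0.192 for cICDH, the cytosolic form, in wild type. Of the 2 genes of the mevalonate route, PMK had 0.34 ± 0.178 and MVD2 −0.64 ± 0.328 in wild type at 2 d. WSD1, a wax ester synthase gene and the 1 measured of 22 for malonyl-CoA, elongation and wax, had −1.28 ± 0.645 from a dim clean-air mean of 4.11, and −0.53 without ozone replicate 1, which read 0.585 where the others read 3.498 to 3.722. Apart from FATB, none of these passed in limma. A further 19 genes, all with a named probe set, were added by annotation name once the coverage of the list was known. They were grouped as citrate and malate, acyl-CoA and plastid acetyl-CoA, or sterol and wax. Not all of them belong to the routes of the list. None passed in any of the 4 ozone comparisons in limma, and 7 in wild type and 1 in the mutant had an unadjusted p under 0.05 at 2 d, where 20.8% and 12.3% of all probe sets had. Their median changes at 2 d were −0.03 in wild type and 0.03 in the mutant. Of the 7 in wild type, singled out after their values were seen, ICDH (0.74), SDH1-1 (0.68), AIM1 (0.54) and SDH2-1 (0.53) had values above 0, and accD (−1.28), MCCA (−0.80) and SGT (−0.36) below 0. The lowest adjusted p was that of accD, the plastid gene for a subunit of acetyl-CoA carboxylase, with −1.28 ± 0.362 in wild type without overlap (limma adjusted p = 0.0531) and 0.08 ± 0.391 in the mutant (adjusted p = 0.967). Of all probe sets, 7.93% were lower without overlap in wild type at 2 d. The accD ozone arrays of wild type read 10.16, 9.82, 8.37 and 10.03, so replicate 3 weighed heavily. Its clean-air means at 2 d were 10.87 in wild type and 10.01 in the mutant.

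**Figure D4:**
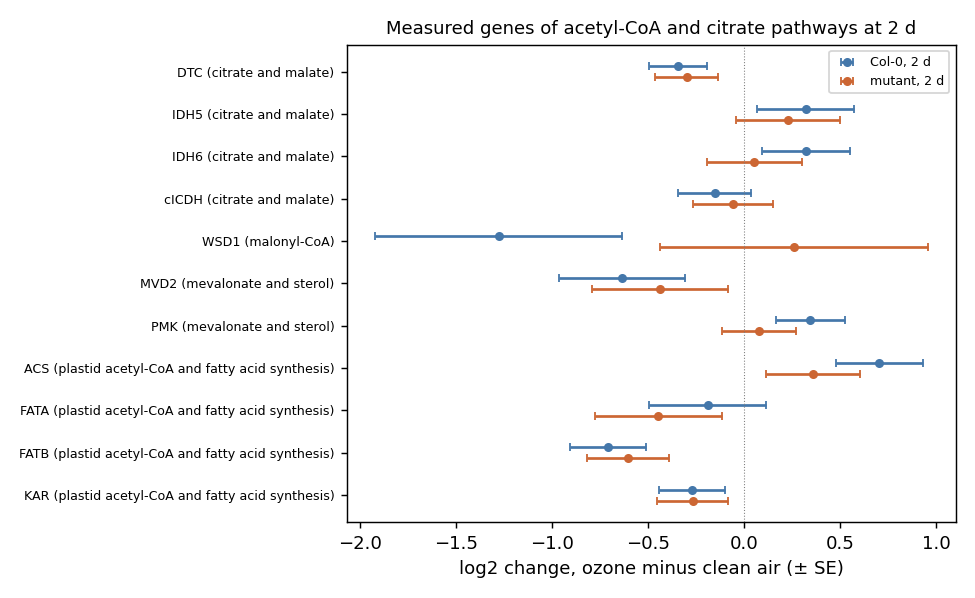
Log2 change in ozone against clean air at 2 d with its SE for the 11 measured genes of the list, in wild type and in the mutant, with the role of each gene in brackets. FATB is at −0.71 and −0.60, ACS at 0.70 and 0.36, and the other genes lie within 0.5 of 0 apart from WSD1 and MVD2 in wild type.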

How the data were processed

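Total leaf RNA was measured on 27 Affymetrix ATH1 arrays. The authors deposited linear intensity values, 1 for each of 22746 probe sets on an array. The submitters' processing notes name RMA and Affymetrix Expression Console; RMA usually ends in log2 values, and no source used here says how the linear scale was reached. Trimmed means of the arrays lay between 495.9 and 496.8, while medians ran from 153.5 to 182.0 and maxima from 22902.4 to 39907.3. The deposited arrays thus do not share 1 distribution, as they would after a quantile normalization of probe-set values. Whether RMA was the last step is not known, and the setting named a second quantile normalization may be the first. No value was missing and no arrays were identical.

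Values were taken as log2(intensity + 1) with no filter, and 8 group means were fitted with limma 3.58.1 in R 4.3.3 (19 residual and 2.53 prior degrees of freedom), with 12 contrasts and 2-sided p-values adjusted by Benjamini-Hochberg over all probe sets. The number of arrays limits the precision. Deviations of same-numbered arrays from their group means correlated with a median of 0.200 at 3 h and 0.203 at 2 d, against −0.173 and −0.0874 for arrays with different numbers. Every same-numbered pair was over 0.1 for ozone against clean air in wild type at 2 d (0.102 to 0.562) and in the mutant at 3 h (0.275 to 0.434), and for the genotypes in ozone at 2 d (0.255 to 0.468). There the numbers were read as pairing the arrays, from the data alone, and elsewhere they were not. The main fit used no pairing in any comparison. The fit with the replicate number as a block used the number for all groups of a time. This included ozone against clean air in the mutant at 2 d, where same-numbered pairs lay between −0.151 and −0.113. In that comparison clean-air arrays 1, 2 and 3 correlated at 0.432, 0.375 and 0.325 with ozone arrays 2, 3 and 4. The numbers of that clean-air group may therefore not match those of the other groups. A block by number cannot show what a fit by matched arrays would give there. The fit was tested on simulated data. Names came from the platform annotation, in which 13513 probe sets had 1 gene, updated through the RefSeq table of TAIR10.1, used for names only.

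The members, lists and rules were chosen with earlier results of these data known. Named were all members, the 5 genes most like and the 1 least like each, and list genes that passed or, in a role with none, up to 3 with the highest mean. Alternatives were a pseudocount of 16, a second quantile normalization, centring on the median, a filter at a mean of 6, separate fits per time, array weights, a replicate block and leaving out each array.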

Additional observations from a re-analysis of the deposited data

How the results depend on the processing

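Of 192 recomputed changes of the 4 genes in tested comparisons with all arrays kept, 182 held their direction and their side of the threshold. Array weights brought 2 past it, the ACLB-1 change in wild type at 3 h (−0.465) and the ACLA-1 change in the mutant at 2 d (−0.654), and 8 near 0 turned sign or came to 0.000. These were, with a second quantile normalization and with centring, the ozone changes in the mutant at 3 h of ACLA-1 (−0.007 and −0.033) and ACLA-3 (−0.003 and −0.029) and the ACLB-1 difference between times in the mutant (−0.030 and −0.018), and with array weights the genotype differences at 3 h of ACLA-2 in clean air (0.000) and ACLA-1 in ozone (−0.107). The cause was not tested. In the comparisons given without a test, 3 of 136 turned sign: mutant minus wild type in clean air at 2 d with centring for ACLA-1 (0.021) and ACLA-3 (0.020), and ozone by time in wild type with array weights for ACLA-3 (−0.125). As single arrays were left out, no change of a member gained or lost its call. Ozone changes ranged from −0.142 to 0.406 for ACLA-3 in wild type at 3 h, from −0.078 to 0.073 for ACLA-1 and −0.169 to 0.210 for ACLA-3 in the mutant at 3 h, and from −0.081 to 0.016 for ACLA-3 in the mutant at 2 d. Genotype differences at 3 h ranged in clean air from −0.301 to 0.114 for ACLA-2 and −0.038 to 0.305 for ACLB-1, and in ozone from −0.185 to 0.129 for ACLA-1 and −0.174 to 0.375 for ACLA-3. Genotype by ozone at 3 h ranged from −0.300 to 0.138 for ACLA-2, −0.396 to 0.153 for ACLA-3 and −0.074 to 0.269 for ACLB-1. Ozone by time ranged from −0.970 to −0.656 for ACLA-1 in wild type, and in the mutant from −0.244 to 0.135 for ACLA-3 and −0.167 to 0.176 for ACLB-1. Counts of all probe sets past the threshold moved more. The ozone count in wild type at 3 h, 342, was 541 with the filter, 145 with separate fits, 3329 with array weights, and 59 to 1230 with an array left out. The count of 148 in the mutant at 3 h was 91 with centring, 234 with the filter, 52 with separate fits, 844 with array weights, and 3 to 296. At 2 d the count of 784 in wild type was 1314 with the filter, 2191 with array weights, and 64 to 971. The count of 43 in the mutant was 76 with the larger pseudocount, 15 with quantile normalization, 18 with centring, 118 with the filter, 117 with separate fits, 424 with array weights, and 0 to 176. For genotype at 3 h, the count of 3 in clean air was 1 with the filter, 14 with array weights and 2 to 5, and the count of 4 in ozone was 2 with the filter, 2 with separate fits, 1085 with array weights and 2 to 13. Genotype by ozone at 3 h gave 0 to 1. For ozone by time in the mutant, the count of 8 was 24 with the larger pseudocount, 52 with the filter, 306 with array weights and 0 to 49. With the filter or array weights, 1 gene of the list of 76 passed higher in wild type at 2 d. The filter tests fewer probe sets and separate fits use fewer arrays. With the replicate number as a block, the counts were 890 and 407 at 3 h and 1299 and 150 at 2 d (wild type, then mutant) and 212 for ozone by time, and no member passed. It changed no call of a member or of FATB. For the mutant at 2 d, and for its ozone by time, this decides nothing about matched arrays. The block joined same-numbered arrays there that correlated at −0.151 to −0.113.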

Other observations

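DEWAX encodes an AP2/ERF factor known in Arabidopsis to repress wax genes and to bind the ACLA-2 promoter, and it is 1 of the 19 added genes. Its mean log2(intensity + 1) in clean air at 3 h stood at 9.00 ± 0.472 for wild type and 11.12 ± 0.699 for the mutant (SD, n = 3 each), and 9.31 ± 0.989 and 10.66 ± 1.05 in ozone. At 2 d in clean air it stood at 12.12 ± 0.668 for wild type (SD, n = 4) and 12.54 ± 0.757 for the mutant (SD, n = 3), and in ozone 12.23 ± 0.256 and 12.01 ± 0.491 (SD, n = 4 each). In clean air at 3 h, 0 of 22746 probe sets passed in limma as higher in the mutant than in wild type, so DEWAX did not pass there. These levels are given as values, and their relation to ACLA-2 was not tested.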
